A study of Mus musculus with 36 samples.

Results

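The genes described here drive DNA replication and cell division. From a list of 43 cell cycle and mitosis genes, which was chosen with earlier results of these data known, every probe set whose annotated symbol was exactly one of these names was taken. This gave 97 of the 45037 probe sets tested, for 42 of the 43 genes and of 18193 gene symbols on the array. The expression of cyclin B1 (Ccnb1) was not analysed here. A single probe set measured 11 of the genes and several measured 31. In each tissue the probe set of highest mean score stands for its gene unless another is named. Where levels are compared between tissues, the probe set of highest mean over the 3 tissues stands for it.

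The arrays were Affymetrix mouse expression arrays of the liver, of white fat (WAT, white adipose tissue) and of brown fat (BAT) from 12 male mice of ddY, an outbred stock. The mice were 5 weeks old on arrival, were kept for 1 week before the experiment and ate freely. By feeding tube, 5 mice (numbers 2, 4, 5, 6 and 7) received a 1.8% solution of CAAM, free amino acids in the proportions of casein, and 7 mice (numbers 1 to 7) received water (DW), at 37.5 µL per g of body weight in 5 daily doses. All were killed 4 h after the last dose, with food withdrawn that morning. The same number in both groups is not the same mouse, and each mouse gave an array of all 3 tissues. The study left out 2 further CAAM mice for abnormal liver morphology, and another treatment arm was not analysed here. The depot of the WAT is not given in the sources used here.

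A cell enters S phase when E-type cyclins and the kinases they activate release E2F transcription factors, and licensed origins then fire. The MCM proteins form the helicase that licenses and unwinds origins, PCNA is the sliding clamp of the polymerases, and ribonucleotide reductase supplies deoxynucleotides. Cyclin A acts in S phase and G2, and cyclin B with Cdk1 drives mitosis, in which centromere proteins, the spindle checkpoint, the chromosomal passenger complex and kinesin motors separate the chromosomes. In adult liver and fat most hepatocytes and all mature adipocytes are out of the cycle, so that dividing stromal, endothelial, immune and precursor cells are a known source of these transcripts. In whole tissue, fewer cells of a type and less RNA per cell cannot be told apart.

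Many genes of this kind share short promoter elements, and the promoters below are examples. Ccnb2, Mki67 and Birc5 were called higher in WAT by the test of the study, described below, as was Rrm2, which is not shown. Cdk1 was not called. Mcm5 and Mcm6 hold more E2F sites in the bases shown than the other genes and do not stand for all replication genes. RefSeq promoter windows of GRCm38.p6 were found for 36 of the 43 listed genes, Ccnb1 included, with 39 windows. Capitals mark the CCAAT box (CCAAT), the cell cycle homology region, CHR (TTTGAA), and E2F sites (TTTCCCGC, TTTCGCGC, TTTGCCGC or TTTGGCGC), each searched on both strands, and each line holds the 200 bases before the start of transcription, read 5′ to 3′ on the strand of the gene.
Ccnb2, chr9:70421555-70421754, minus strand: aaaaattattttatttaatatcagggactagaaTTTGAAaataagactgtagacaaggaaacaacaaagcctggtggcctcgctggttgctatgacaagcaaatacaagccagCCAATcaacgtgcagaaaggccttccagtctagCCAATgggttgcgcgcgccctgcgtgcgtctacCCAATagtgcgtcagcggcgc
Cdk1, chr10:69352913-69353112, minus strand: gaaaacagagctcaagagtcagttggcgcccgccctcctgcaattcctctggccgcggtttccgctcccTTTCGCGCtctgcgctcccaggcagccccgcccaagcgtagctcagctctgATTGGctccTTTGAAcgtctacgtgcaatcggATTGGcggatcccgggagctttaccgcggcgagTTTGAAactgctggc
Mki67, chr7:135716380-135716579, minus strand: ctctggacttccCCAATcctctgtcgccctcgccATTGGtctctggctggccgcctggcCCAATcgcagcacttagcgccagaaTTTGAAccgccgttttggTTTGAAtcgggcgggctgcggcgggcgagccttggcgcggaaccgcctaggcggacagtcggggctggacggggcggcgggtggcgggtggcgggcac
Birc5, chr11:117849037-117849236, plus strand: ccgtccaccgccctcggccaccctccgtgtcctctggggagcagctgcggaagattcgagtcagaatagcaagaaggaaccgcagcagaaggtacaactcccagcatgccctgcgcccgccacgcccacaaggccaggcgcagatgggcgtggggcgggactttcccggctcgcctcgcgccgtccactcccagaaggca
Mcm5, chr8:75109309-75109508, plus strand: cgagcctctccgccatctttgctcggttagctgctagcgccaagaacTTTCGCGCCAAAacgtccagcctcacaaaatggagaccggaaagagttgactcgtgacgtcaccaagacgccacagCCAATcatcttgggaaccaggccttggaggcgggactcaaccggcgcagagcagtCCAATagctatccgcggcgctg
Mcm6, chr1:128359706-128359905, minus strand: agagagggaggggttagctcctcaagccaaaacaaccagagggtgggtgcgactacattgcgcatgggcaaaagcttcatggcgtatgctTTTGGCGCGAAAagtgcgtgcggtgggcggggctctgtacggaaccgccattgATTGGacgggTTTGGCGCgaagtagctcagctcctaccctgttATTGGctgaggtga
Over the 250 bases before the start, a CCAAT box stood in 82.1% of the 39 windows of these genes, against 33.8% of all 32851 promoter windows. The CHR stood in 28.2% against 16.0%, and an E2F site in 12.8% against 1.86%. Of the 26 windows of mitosis genes 34.6% held a CHR and 3.85% an E2F site, while of the 12 windows of replication and nucleotide genes 16.7% held a CHR and 33.3% an E2F site. The Ccnb2 promoter holds 3 CCAAT boxes and the CHR farther upstream, the Mki67 promoter 3 CCAAT boxes and the CHR in 2 copies, and the Birc5 stretch none of these letters. In Mcm5 the long capital run is made of 2 overlapping E2F sites on opposite strands, as it is in Mcm6, which has another downstream. These matches are descriptions of the letters alone.

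The deposited values are scores of the distribution free weighted (DFW) method, log2-like in level, in which differences between arrays of a tissue were weighted down for each probe set. The SD of a probe set between mice of a group had a median of 7.31e-06 (BAT), 1.07e-05 (liver) and 1.42e-05 (WAT), so a difference between groups is not a log2 fold change. Values of single mice are therefore given as the score minus the mean of the 12 mice in units of the SD within groups, and a standardised difference is the CAAM mean minus the DW mean in the same units. The tissues matched their labels: albumin (Alb) scored 15 in liver and 6.98 and 6.54 in WAT and BAT, adiponectin (Adipoq) 14.5 and 14.0 in the fat depots and 6.07 in liver, and Ucp1, the thermogenic uncoupler, 14.2 in BAT against 6.28 in liver and 6.44 in WAT. Of the 42 genes, 27 scored above the array median on all arrays of WAT, 20 of liver and 16 of BAT, and the others below it. In WAT, 4 arrays stood out in genes of the male reproductive tract: DW1 and DW2 in the epididymis markers (1.95 and 1.48 SD), and CAAM6 and, less, CAAM7 in Serpina1f (3.28 and 0.65 SD) and Spint4 (3.22 and 0.74 SD), where the other mice lay below 0. The level of the epididymis markers is a mean over 5 genes, of which Spint4 is a member. It stood at 0.42 SD in CAAM6, with the 3.22 SD of Spint4 included, and at -0.40 SD in CAAM7. Likewise, in BAT the muscle genes were highest on 4 arrays (DW1, DW3, DW7 and CAAM2). Results that rest on these arrays are given with and without them.

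Of the 3 tissues, WAT most often had the highest score for the cell cycle genes. The highest mean was that of WAT for 32 of the 42 genes (43.5% of all probe sets), that of liver for 6 (34.9%) and that of BAT for 4 (21.6%). The lowest was that of liver for 20 genes (38%), of BAT for 19 (37.6%) and of WAT for 3 (24.5%). WAT was above liver for 35 of the 42, with a median difference of 0.29 score units against 0.05 over all probe sets, where 55.6% were higher in WAT. BAT was below WAT for 36 of the 42, with a median of -0.31 against -0.09 over all probe sets, of which 36.6% were higher in BAT. BAT and liver differed in either direction equally often, by 21 genes each, with a median of 0.00 against -0.02. Over all their probe sets, 70 of the 97 were higher in WAT than in liver and 19 were higher in BAT than in WAT. In BAT against liver 38 of the 97 were higher, with 47.4% of all. The 12 values of each of the 42 genes did not overlap between any pair of tissues, but neither did those of 99.6%, 99.9% and 99.5% of all probe sets (WAT and liver, BAT and liver, BAT and WAT), because the scores vary within a tissue by a far smaller order than they differ between tissues, as weighting in separate runs would give. No test was therefore made of levels between tissues.

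**Figure D1:**
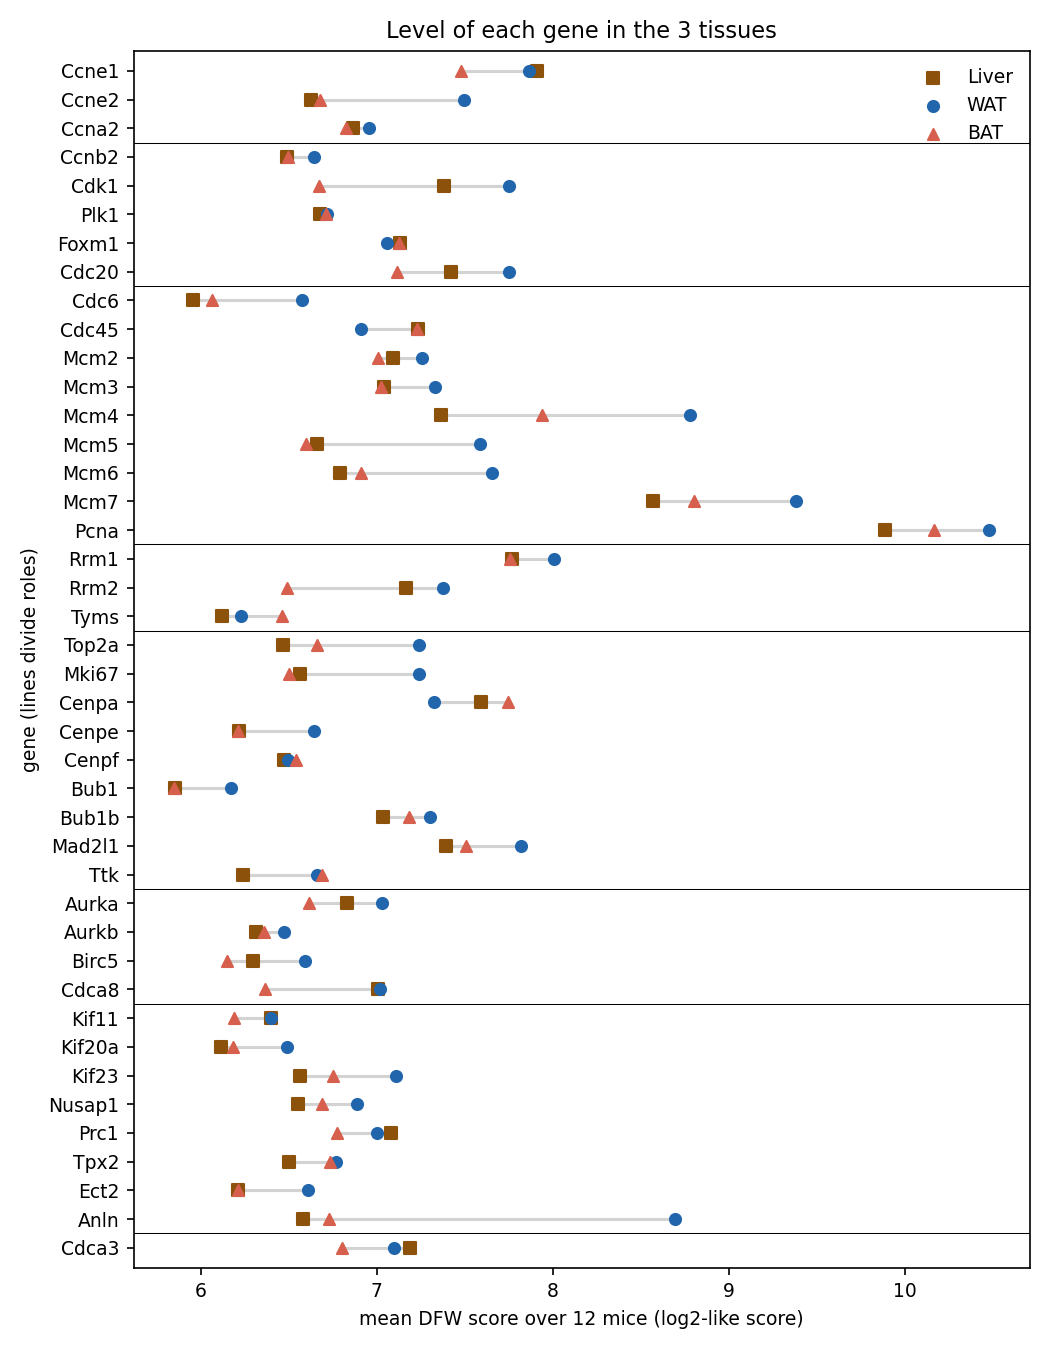
Mean DFW score (log2-like score, horizontal axis) of each of the 42 genes over 12 mice in liver (squares), WAT (circles) and BAT (triangles), with genes grouped by role between the lines. The SD between mice is smaller than the symbols. The WAT circle lies farthest right for 32 of the 42 genes, and the widest lines are those of Anln and Mcm4.

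Only 3 genes differed by over 1 score unit between tissues. Anillin (Anln), the scaffold of the contractile ring, scored 6.58 in liver, 8.69 in WAT and 6.73 in BAT. Its other probe set scored 6.29, 6.59 and 6.09, so the size of the gap was seen with the brighter probe set. Mcm4, a subunit of the MCM helicase, scored 7.36 in liver, 8.78 in WAT and 7.94 in BAT, and its other probe set 6.53, 7.54 and 7.15. Cdk1, the mitotic kinase, scored 7.38 in liver, 7.75 in WAT and 6.67 in BAT. Thus 2 genes were over 1 unit higher in WAT than in liver (8.35% of all probe sets) and none lower (3.95%), and 2 were over 1 unit lower in BAT than in WAT (4.91%) and none higher (1.77%). Between BAT and liver no gene passed 1 unit, where 4.6% of all probe sets were higher and 5.02% lower in BAT.

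All 6 MCM subunits measured had the order WAT highest. Mcm5 scored 6.66 in liver, 7.59 in WAT and 6.60 in BAT, and Mcm6 6.79, 7.66 and 6.91. Mcm7 scored 8.57, 9.38 and 8.80. The clamp Pcna had the same order, with 9.89 in liver, 10.5 in WAT and 10.2 in BAT. The general proliferation marker Mki67 scored 6.56 in liver, 7.24 in WAT and 6.5 in BAT, and Rrm2, the regulated subunit of ribonucleotide reductase, 7.17, 7.38 and 6.49. Against the majority, Cdc45, the helicase activator, was lowest in WAT (7.23 in liver, 6.91 in WAT, 7.23 in BAT), as were Cenpa, the histone of the centromere (7.59, 7.32 and 7.74), and Foxm1, the transcription factor of G2 and M phase genes.

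In WAT, genes of the cell cycle had higher mean scores in CAAM than in DW mice. The mean was higher for 39 of the 42 genes, while 51.1% of all probe sets were higher and 48.9% lower, and the median standardised difference was 0.71 against 0.01 over all probe sets. Of the 97 probe sets 86 were higher, and for 32 genes every probe set was. Rank products, the test of the study, called 6 of the 97 probe sets higher (6.19%, with 0.822% of all probe sets called), for Mki67, Rrm2, Ccna2, Ccnb2 and Birc5, and called none lower (1.94% of all). In simulated arrays most rank products calls fell on probe sets that had not been moved, so a call here is no strong evidence of a difference. By limma none of the 97 passed an adjusted p of 0.05 (0.0% of all probe sets did), with 0.9999 as the lowest. In the simulated arrays limma missed nearly all shifts of 2 SD, so this is no evidence that the groups were alike. At an unadjusted limma p under 0.05, 13 probe sets of 11 genes were higher (13.4%, with 1.97% of all) and none was lower (2.0% of all). The groups overlapped for every gene, whereas CAAM lay wholly above DW for 0.0977% of all probe sets and wholly below for 0.124%.

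**Figure D2:**
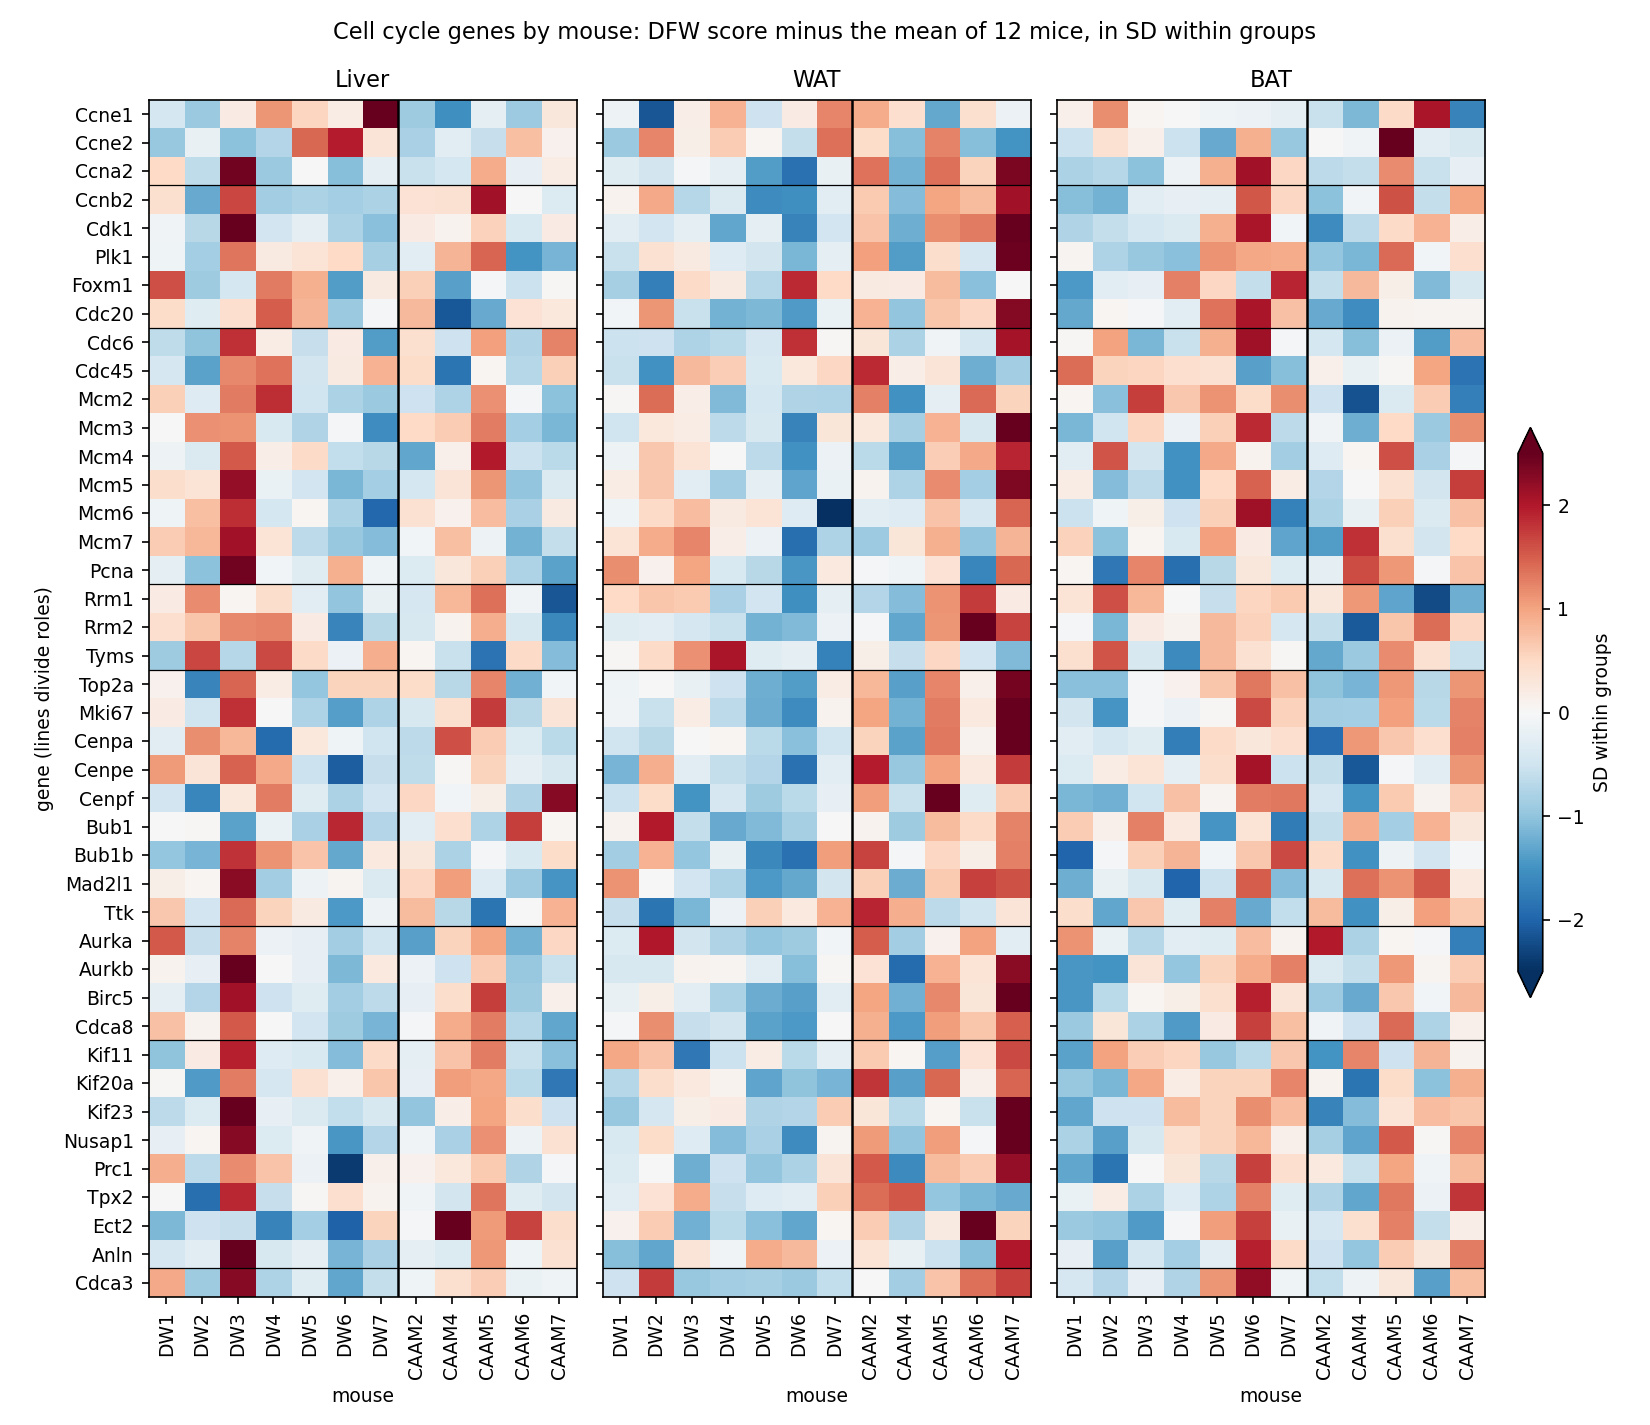
Score of each of the 42 genes (rows, grouped by role between the lines) in each mouse (columns, DW left and CAAM right of the line) in 3 tissues, as the difference from the mean of 12 mice in units of the SD within groups; red is higher and blue lower, with colours held at 2.5. Columns of 1 colour stand out: DW3 in liver, CAAM7 in WAT and DW6 in BAT are mostly red.

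Mki67 encodes the Ki-67 protein, which coats mitotic chromosomes and is the usual stain for cycling cells. In WAT it stood at 0.99, -1.18, 1.3, 0.25 and 2.48 SD in CAAM mice 2, 4, 5, 6 and 7, and in DW mice from -1.57 over a median of -0.55 to 0.19. All CAAM mice but number 4 lay above the highest DW mouse, and number 4 lay near the bottom. The mean score was higher by 0.00691 ± 0.00299 (SE, 5 CAAM and 7 DW mice), a standardised difference of 1.32.

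Rrm2 had 2 probe sets called. On the brighter one it stood at -0.06, -1.3, 1.10, 2.53 and 1.68 SD in the CAAM mice in the same order, and from -1.17 over -0.42 to -0.15 in DW mice. CAAM6 was the highest here, while CAAM7 was the highest for the other 4 called genes. The difference was 0.00680 ± 0.00287 (SE), or 1.36 SD, and the other called probe set gave 1.23 SD and the remaining one 1.49 SD.

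Ccna2, cyclin A, stood at 1.36, -1.18, 1.38, 0.57 and 2.36 SD in CAAM mice 2, 4, 5, 6 and 7 and from -1.87 over -0.29 to -0.06 in DW mice. Its difference of 0.00176 ± 0.000657 (SE), or 1.54 SD, was the largest in SD units among the called probe sets, and its other probe set gave 1.08 SD. Ccnb2, a B-type cyclin of mitosis, stood at 0.66, -1.08, 0.98, 0.79 and 2.11 SD and from -1.57 over -0.37 to 0.94 in DW mice, a difference of 0.00289 ± 0.00139 (SE), or 1.19 SD. For Ccna2 the same 4 CAAM mice were above every DW mouse, whereas for Ccnb2 only CAAM5 and CAAM7 were above DW2, the highest DW mouse.

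Birc5, survivin, a subunit of the chromosomal passenger complex, stood at 1.0, -1.2, 1.2, 0.30 and 2.69 SD in CAAM mice and from -1.37 over -0.29 to 0.14 in DW mice. The difference was 0.00124 ± 0.000518 (SE), or 1.37 SD. Cdk1, not called by rank products, had the largest standardised difference of the 42 genes, 1.60, with values of 0.72, -1.22, 1.16, 1.3 and 2.7 SD in CAAM mice and from -1.67 over -0.48 to -0.23 in DW mice. It lay at the 81.9 percentile of SD among all probe sets, while the called genes lay between the 93.4 and 97.4 percentiles. Rank products order raw differences, and 96.6% of the probe sets they called in WAT were in the top 10% by SD.

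Among the other genes, the medians of the mitotic roles lay above that of replication, a difference that was not tested. The 9 chromosome, centromere and checkpoint genes had a median of 1.15 SD with all 9 higher, among them Cenpe, the kinetochore motor (1.38 SD), Cenpf of the kinetochore (1.29 SD), and the checkpoint genes Bub1b (1.23 SD) and Mad2l1 (1.14 SD). Of these 4, Cenpe passed an unadjusted limma p of 0.05. All 5 G2/M cyclins, kinases and regulators were higher, with a median of 1.16, including Cdc20, the activator of the anaphase promoting complex (1.16 SD), and Plk1, polo-like kinase (0.73 SD). The 8 spindle, motor and cytokinesis genes had a median of 0.91 with 7 higher, such as Nusap1, which bundles spindle microtubules (1.25 SD), Prc1 of the central spindle (1.23 SD) and Ect2, which activates RhoA for cytokinesis (1.17 SD). The 4 genes of the passenger complex and Aurora A had a median of 0.79, and Cdca3, a trigger of mitotic entry, stood at 1.01. Rank products called none of these mitotic genes except Mki67, Ccnb2 and Birc5.

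The 9 licensing and replication fork genes were all higher in mean but by less, with a median of 0.39 SD and a range from 0.01 for Pcna to 0.85 for Mcm3, and none was called. Of the nucleotide genes, Rrm1, the large reductase subunit, stood at 0.42 SD and Tyms, thymidylate synthase, at -0.52 SD. The E-type cyclins of S phase entry were apart from Ccna2, with 0.11 SD for Ccne1 and -0.66 SD for Ccne2. Thus Ccne2, Tyms and Tpx2 (-0.14 SD), an activator of Aurora A, were the 3 genes with a lower mean. Probe sets disagreed for Tpx2, where others gave 1.2 and 1.09, and for Tyms, where 1.19 was the highest. For Mcm3 they ran from -0.16 to 2.31, the latter from a probe set of low SD that stood at 1.26, 1.10, 1.91, -0.47 and 2.94 SD in CAAM mice and from -1.97 over -1.02 to 0.44 in DW mice.

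**Figure D3:**
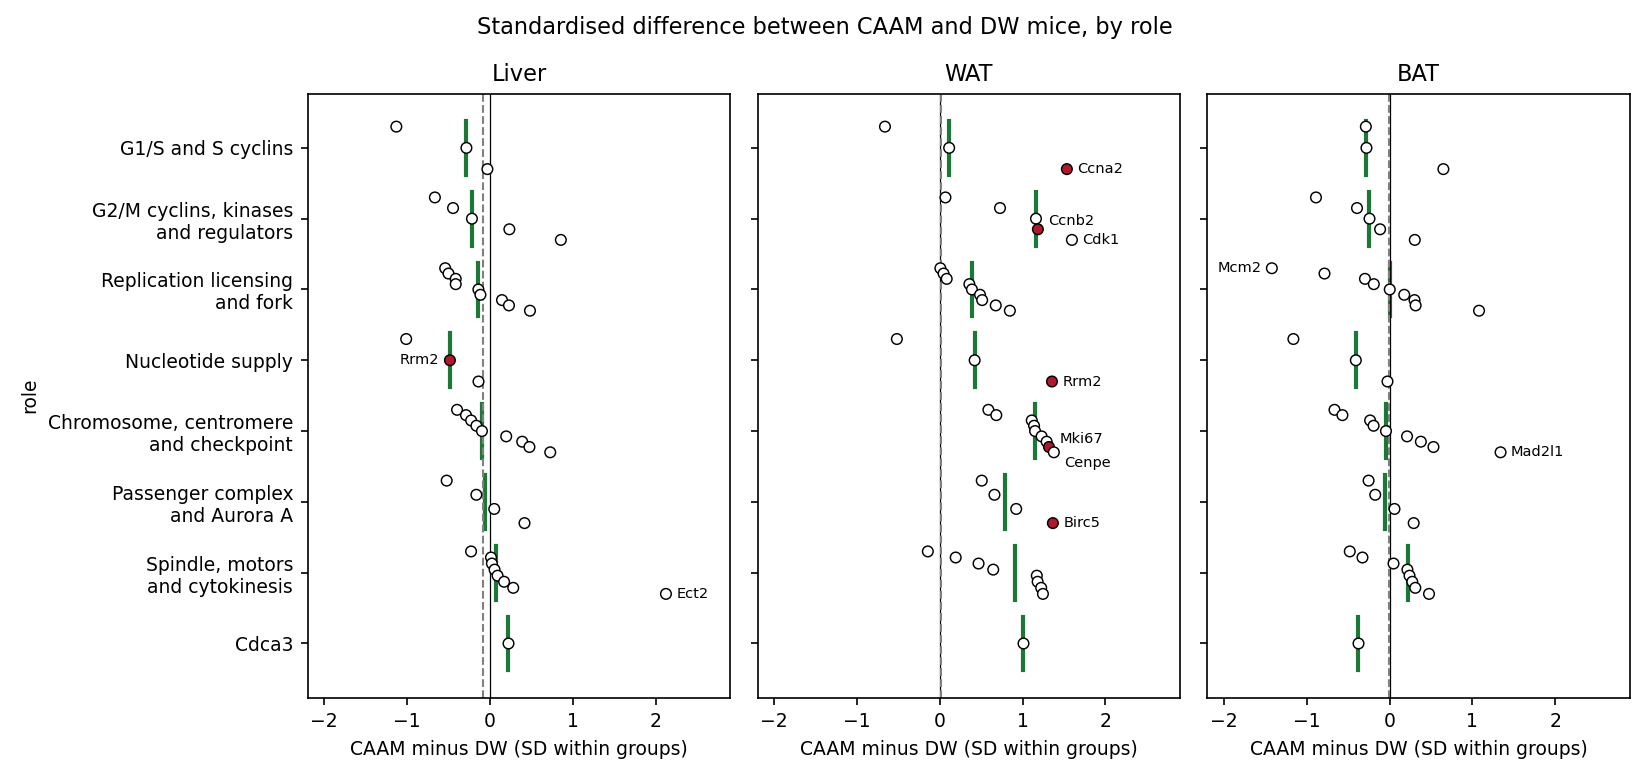
Standardised difference (CAAM mean minus DW mean, in SD within groups, horizontal axis) of each gene by role in liver, WAT and BAT; filled points were called by rank products, green bars are medians of a role and the dashed line is the median over all probe sets. In WAT the medians of the mitotic roles lie between 0.79 and 1.16 and that of replication at 0.39, and in liver and BAT all role medians lie between -0.48 and 0.23.

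The mean over the 42 genes placed the mice of the WAT comparison in order. In CAAM mice 2, 4, 5, 6 and 7 it was 0.68, -0.75, 0.63, 0.20 and 1.37 SD, with a mean of 0.43 ± 0.78 (SD, n = 5), and in DW mice it ran from -0.89 over -0.23 to 0.21, with a mean of -0.30 ± 0.37 (SD, n = 7). CAAM4 lay below all DW mice but DW6, CAAM6 lay just below DW2, and CAAM2, CAAM5 and CAAM7 lay above every DW mouse. Without CAAM4 the median standardised difference was 1.33, and without CAAM7 it was 0.54. The rank products count fell to 1 of 97, Mki67, without CAAM5, CAAM6 or CAAM7 and to 2 without CAAM2, and it was 7 without CAAM4, with Top2a, the topoisomerase of mitotic chromosomes, added. With the 4 arrays with male tract genes left out, 34 of the 42 genes were higher (50.9% of all probe sets) at a median of 0.73, and no probe set was called, with 0.0933% of all called. DW1, DW2 and CAAM6 were the arrays highest in the mean of the epididymis markers, which in CAAM6 includes its high Spint4. With only these left out, 38 genes were higher at a median of 1.06, and 2 probe sets were called, of Mki67 and Ccnb2.

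**Figure D4:**
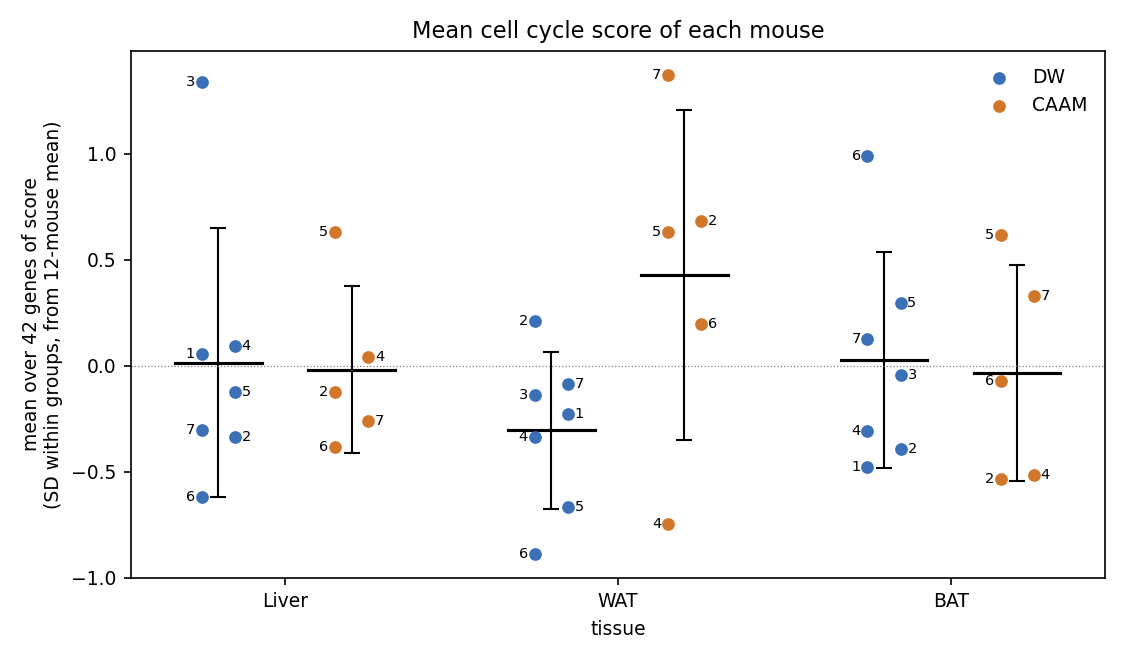
Mean over the 42 genes of the score of each mouse (vertical axis, SD within groups from the 12-mouse mean), for DW (blue, n = 7) and CAAM (orange, n = 5) mice in each tissue; points carry the mouse number, long bars are means and whiskers SD. In WAT 4 of the 5 CAAM mice lie above the DW mean of -0.30 and CAAM4 below it, and in liver and BAT the group means nearly coincide.

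The scale of the arrays bears on the size of these values. In WAT the array medians spanned 0.00596 score units, against a median SD of the 42 genes of 9.64e-05. When the arrays were centred on their medians the median over all probe sets became 0.16 and that of the 42 genes 0.19, with all 42 genes and 96.6% of all probe sets higher, and after quantile normalization the medians were 0.05 and 0.11, with 36 genes and 67.6% of all probe sets higher. Relative to all probe sets the genes were thus higher under each scaling but by far less than as deposited. All called genes kept a difference of 0.83 SD or more under both scalings. The values ran from 0.83 for Birc5 after centring to 1.9 for the brighter probe set of Rrm2. Cdk1 stood at 0.01 after quantile normalization and 0.27 after centring. Centring moves all probe sets of an array by the same score, so those of small SD move more relative to their SD. Over all mice in WAT the SD was 0.00613 for Mki67, 0.00276 for Ccnb2, 0.001075 for Birc5 and 0.000159 for Cdk1. Rank products mostly called probe sets of high SD. The contrast with Cdk1 thus cannot show that the called genes were otherwise less dependent on scale. Rank products rank differences within each pair of arrays, which centring cannot change, so the same 6 calls after centring are no further evidence. They called 2 probe sets after quantile normalization, of Mki67 and Rrm2, but none when ranks were taken of differences divided by the SD.

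Markers of other cells also moved in WAT, where rank products called 0.822% of all probe sets higher and 1.94% lower. All 6 mesothelium markers were lower in CAAM mice and called by rank products, with a mean over the markers of -1.58 to -0.04 SD in CAAM and -0.60 to 1.95 SD in DW mice. Leukocyte markers had 5 of 6 higher, with 1 called, and levels of -0.63 to 1.81 SD in CAAM and -0.75 to 0.21 SD in DW mice, and CAAM7 was the highest for these too. Neutrophil granule genes had a higher mean for 7 of 8, with 3 called higher. Of these 3, Prtn3, at 0.25 SD, was called lower as well. Lymphocyte markers had a higher mean for 4 of 6, with 2 called higher. For the neutrophil and lymphocyte lists CAAM7 was again the highest, at 0.97 and 1.72 SD. Macrophage markers had 2 of 12 higher and none called, and endothelial markers 0 of 8 higher and 2 called lower. Epididymis genes had 1 of 5 called higher and 4 lower. Whether these cells had a part in the cell cycle scores was not tested.

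In liver, CAAM and DW mice showed no common direction over the cell cycle genes. The mean was higher for 19 of the 42 genes (44.5% of all probe sets) and lower for 23 (55.5%), with a median standardised difference of -0.11 against -0.09 over all probe sets. Rank products called none of the 97 probe sets higher (1.62% of all) and 2 lower (2.06%, with 1.17% of all), both of Rrm2. By limma no probe set passed an adjusted p of 0.05 (0.0% of all), and at an unadjusted p under 0.05 there was 1 higher, Ect2 (2.74% of all), and 2 lower, 1 each of Foxm1 and Tyms (4.03% of all). No gene had groups that did not overlap, against 0.167% of all probe sets wholly above and 0.275% wholly below.

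Rrm2 in liver stood at -0.39, 0.08, 0.91, -0.39 and -1.62 SD in CAAM mice 2, 4, 5, 6 and 7 and from -1.66 over 0.42 to 1.24 in DW mice. Both groups covered nearly the same range, and the difference was -0.000652 ± 0.000765 (SE), or -0.48 SD, with -0.51 SD for the other called probe set. It was again among the probe sets of high SD, at the 98.1 percentile, and without DW1, DW2, DW3, DW4 or CAAM7 only 1 probe set was called lower. None was with ranks of differences divided by the SD. Ect2 stood at -0.03, 3.04, 1.07, 1.69 and 0.44 SD in CAAM mice and from -2.01 over -0.86 to 0.56 in DW mice. All 5 CAAM mice were above the DW median, and 3 were above every DW mouse. The difference of 2.13 SD had a limma adjusted p of 0.647. It was -0.00 after quantile normalization and -1.0 after centring, so its sign rests on the scale. These scalings also moved the medians in liver. They became -0.52 for the 42 genes and -0.49 for all probe sets after quantile normalization, and -1.24 and -1.36 after centring. Ect2 thus stayed above the median of all probe sets under both.

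Among the replication genes of the liver 3 of 9 were higher, with a median of -0.14 SD, and all 3 nucleotide genes were lower, at -0.14 SD for Rrm1 and -1.01 SD for Tyms. The E cyclins were lower in mean, at -1.13 SD for Ccne1 and -0.28 SD for Ccne2. Of the mitotic genes, Ccnb2 stood at 0.86 SD, Cenpf at 0.73 SD and Mki67 at 0.48 SD, while Aurkb, the kinase of the passenger complex, stood at -0.52 SD and Cdc20 at -0.66 SD. The spindle, motor and cytokinesis genes had 7 of 8 higher in mean, with a median of 0.07 SD. Of the genes in these roles, only the probe sets of Rrm2, Ect2, Foxm1 and Tyms counted above passed a test, and for Foxm1 and Tyms that was not the probe set that stands for the gene.

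DW3 stood apart in the liver. Its mean over the 42 genes was 1.34 SD, while the other 6 DW mice lay between -0.62 and 0.09 and CAAM mice 2, 4, 5, 6 and 7 at -0.12, 0.04, 0.63, -0.38 and -0.26. In DW3 Aurkb stood at 2.74 SD, Cdk1 at 2.66 SD, Kif23, a motor of the central spindle, at 2.51 SD and Anln at 2.5 SD. Without DW3 the median of the 42 genes was 0.18, with 26 genes higher, and it was also above 0 without CAAM2, CAAM6 or CAAM7 (0.04 to 0.07). Without DW2 or DW3, 1 probe set, of Mcm6, was called higher. CAAM5 was the highest CAAM mouse for the cell cycle genes and also for leukocyte and macrophage markers, at 2.82 and 2.33 SD. Of the leukocyte markers all 6 were called higher in CAAM liver, and of the macrophage markers 9 of 12 (1.62% of all probe sets). Their part in the values of CAAM5 was not tested.

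In BAT no cell cycle gene was called. The mean was higher in CAAM mice for 19 of the 42 genes (49.2% of all probe sets) and lower for 23 (50.8%), with a median standardised difference of -0.08 against -0.01. Rank products called none of the 97 probe sets higher (1.18% of all) or lower (2.06% of all), and limma none at an adjusted p of 0.05 (0.0% of all). At an unadjusted limma p under 0.05, 1 was higher, Mad2l1 (3.77% of all), and 2 were lower, of Mcm2 and Kif11 (2.64% of all). Groups overlapped for every gene, with 0.191% of all probe sets wholly above and 0.138% wholly below.

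Mad2l1, which holds back anaphase until chromosomes are attached, stood at -0.40, 1.39, 1.13, 1.55 and 0.24 SD in CAAM mice 2, 4, 5, 6 and 7 and from -1.99 over -0.54 to 1.52 in DW mice, a difference of 1.34 SD. Mcm2, another helicase subunit, stood at -0.51, -2.19, -0.36, 0.63 and -1.72 SD in CAAM mice and from -1.05 over 0.68 to 1.73 in DW mice, a difference of -1.42 SD. For Mad2l1 all CAAM mice lay above the DW median and for Mcm2 all lay below it, and limma adjusted p values were 0.756 and 0.75. Among genes that passed no test, the difference was 1.08 SD for Pcna and -1.16 SD for Rrm1. The genes called in WAT had differences of -0.04 SD for Mki67, -0.03 SD for Rrm2, -0.29 SD for Ccna2, 0.30 SD for Ccnb2 and -0.25 SD for Birc5 in BAT.

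A single DW mouse again stood high. The mean over the 42 genes was 0.99 SD in DW6 and -0.48 to 0.30 in the other DW mice, and -0.53, -0.52, 0.62, -0.08 and 0.33 SD in CAAM mice 2, 4, 5, 6 and 7. DW6 and CAAM5, the highest mice of their groups, were also highest for the leukocyte markers, at 1.58 and 1.22 SD, and DW6 was highest for macrophage markers at 1.57 SD. The part of these cells was not tested. The median was above 0 without DW6 (0.09), CAAM2 (0.11) or CAAM4 (0.03). Without CAAM2, or without the 4 arrays of high muscle genes, Cenpa was called higher, and without CAAM5 or CAAM7 1 probe set was called lower. Centring and quantile normalization moved the medians of these genes to 0.89 and 0.62, beside 0.90 and 0.60 over all probe sets, so the genes shifted with the whole array. Mcm2 changed sign, to 0.89 and 0.79 SD, and Mad2l1 stood at 0.99 and 0.67 SD, close to the shift of all probe sets.

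Single mice did not rank alike in the tissues. CAAM5 had 0.63, 0.63 and 0.62 SD in liver, WAT and BAT, while DW3, highest in liver, had -0.14 and -0.04 SD in WAT and BAT. DW6, highest in BAT at 0.99, had -0.62 SD in liver and -0.89 SD in WAT, the lowest of all mice in both, and CAAM7, highest in WAT at 1.37, had -0.26 and 0.33 SD in liver and BAT.

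The difference of the CAAM effect between tissues was tested within mice by limma, on scores divided by the SD. At an unadjusted p under 0.05 the effect was smaller in BAT than in WAT for 20 of the 97 probe sets, of 15 genes (20.6%, with 4.09% of all probe sets), and larger for none (4.57% of all). Among these were Cenpe, with a difference of effects of -2.04 ± 0.755 (SE), Ccna2 with -2.08 ± 0.773, Cdc20 with -2.05 ± 0.779, Cdk1 with -1.84 ± 0.77, Birc5 with -1.62 ± 0.76 and Rrm2 with -1.61 ± 0.783. None passed an adjusted p of 0.05 (0.0622% of all did). Against liver, the effect in WAT was larger for 9 probe sets (9.28%, with 5.67% of all) and smaller for none (4.28% of all). There 1 passed the adjusted threshold (0.329% of all), the probe set of low SD of Mcm3, with 3.18 ± 0.804 (SE) and a limma adjusted p of 0.0327. In the comparison of WAT with liver, limma gave each member probe set the same SE, 0.804. It is thus not the spread of this Mcm3 probe set between mice, and its p value does not measure that spread. Between BAT and liver 3 were larger (5.76% of all) and 2 smaller in BAT (3.71% of all), Mad2l1, Pcna and Kif23 for the former and Ect2 and Kif11 for the latter, with no adjusted call (0.273% of all). The comparisons share the WAT, liver and BAT arrays of the same mice. They were made on the deposited scale alone, and whether their direction holds on other scales was not tested. The median of the 42 genes was 0.71 in WAT and -0.08 in BAT as deposited, beside 0.01 and -0.01 over all probe sets. After centring it was 0.19 and 0.89, beside 0.16 and 0.90 over all probe sets. After quantile normalization it was 0.11 and 0.62, beside 0.05 and 0.60. The order of the tissues in these medians thus changed together with that of all probe sets.

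The genes varied together from mouse to mouse. After the group means were taken out, the mean Pearson r over all 861 pairs of the 42 genes across 12 mice was 0.29 in liver, 0.31 in WAT and 0.24 in BAT, against 0.01, 0.03 and 0.01 over pairs of all probe sets. Genes on 1 array share its RNA and scale, and these values are descriptions. The 4 genes of the passenger complex and Aurora A were closest, with 0.72 in liver and 0.62 in WAT, but 0.30 in BAT, where the G2/M genes had 0.47. Replication genes had 0.49 in liver, 0.26 in WAT and 0.14 in BAT. The gene most like the rest, by its mean r with the other 41 members, was Birc5 in WAT (0.55) and BAT (0.47), and Aurkb and Birc5 in liver (both 0.51). Some members did not follow: Bub1 had -0.41 in liver, Cdc45 -0.34 in BAT and Tpx2 -0.21 in WAT.

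Other genes of the cycle were read from lists of known function. Of 39 further mitosis genes 37 were higher in mean in WAT of CAAM mice, with a median of 0.93 SD, and 15 were higher at an unadjusted limma p under 0.05 (1.97% of all probe sets) and none lower (2.0%). Rank products called 1 higher (0.822% of all), Cep55, which acts in the final cut of cytokinesis (1.53 SD), and none lower (1.94%). Lmnb1, lamin B1 of the nuclear envelope, had 1.71 SD, and Spc25 of the kinetochore and the kinesin Kif4 both had 1.57 SD. In liver 21 of these 39 were higher (median 0.07) and in BAT 16 (median -0.06). Of 21 further replication genes 18 were higher in WAT (median 0.51, 3 at an unadjusted limma p under 0.05), 5 in liver (median -0.27) and 13 in BAT (median 0.22). Pole, a replicative polymerase, had 1.35 SD in WAT, and Mcm10, an initiation factor, was the 1 gene of these called lower in liver by rank products (1.17% of all probe sets), at -1.26 SD, and Brca1, of DNA repair, the 1 called higher (1.62%), at 1.3 SD.

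Of the controllers of G1, 14 of 20 were higher in mean in WAT, with a median of 0.18 SD and none called in either direction. Cyclin D1 (Ccnd1) was called higher in liver by rank products at 0.85 SD and lower in BAT at -2.19 SD, with limma adjusted p values of 0.82 and 0.645. E2f8, a repressor of the E2F family, was called lower in liver at -0.73 SD. These were the only G1 genes called in any tissue, 1 of 20 in each direction in liver (1.62% and 1.17% of all probe sets) and 1 lower in BAT (2.06%). Of the inhibitors of cyclin-dependent kinases and targets of p53, 7 of 13 were higher in WAT with a median of 0.05. Among them Cdkn1a, p21, was the 1 called higher in WAT, at 0.83 SD (0.822% of all probe sets), and in BAT, at 0.68 SD (1.18%), and Gadd45a, a stress gene, had 1.47 SD in WAT. Plk2, a p53 target, was called lower in BAT (2.06% of all probe sets) at -2.66 SD with a limma adjusted p of 0.612.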

How the data were processed

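RNA (200 ng) of each tissue was hybridised to 1 array per mouse and tissue. Per the labels and the study's methods, the authors quantified the arrays by the DFW method, in R 2.7.2 by the submitters' processing notes, and deposited 1 score per probe set. Without 64 control probe sets of 45101, 45037 were tested. Of these, 34945 had 1 gene symbol, 932 several and 9160 none in the platform annotation. The scores were used as deposited. Since arrays give no counts, their number limits the precision.

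Groups came from the sample titles. In each tissue CAAM was compared with DW by rank products over 35 pairs of arrays (100 permutations, 20 for alternatives; a call needed a false positive share, estimated per direction, below 0.05) and by limma 3.58.1 (R 4.3.3; lmFit and eBayes, Benjamini-Hochberg over all probe sets, two-sided), without a replicate block. Effects were compared between tissues by limma on differences within mice of scores divided by the SD within groups. Named genes are the members, in full those called, those with up to 6 of the largest differences in each direction and those past 1 score unit between tissues, and in other lists those called or with the lowest 3 limma p values. Some members outside these ranks are named as examples of their role. The members and lists were chosen with earlier results of these data known. Both tests were tested on simulated WAT data. Limma called few probe sets that had not been moved, but it missed nearly all that were moved by 2 SD, the smallest step. For differences of that size or smaller, a lack of limma calls is thus no evidence that groups were alike. Rank products called more unmoved than moved probe sets and mostly missed the latter. Their estimated share of false positives is thus nominal and did not hold there. Alternatives were quantile normalization, centring, leaving out dim probe sets, ranks of differences divided by the SD, a block, leaving out each mouse and, chosen after seeing the data, leaving out arrays that stand apart. Other steps ran in Python 3.11.15 with pandas 2.3.3, numpy 2.4.6, matplotlib 3.10.9 and scipy 1.17.1.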

Additional observations from a re-analysis of the deposited data

Results flagged for a closer look

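In 258 groups of mice (each gene and the mean over the 42 genes, in each tissue and treatment), the highest or lowest mouse was set against the nearest other, and in 24 the gap was a larger share of the range than Dixon's 95% critical value. Chance gives this in about 1 in 20 groups. In liver, 8 of these were DW3 as the highest DW mouse, with gaps of 0.741 of the range for Cdk1, 0.677 for Mad2l1, 0.647 for Aurkb, 0.791 for Birc5, 0.862 for Kif23, 0.5995 for Nusap1, 0.746 for Anln and 0.638 for the mean over the 42 genes. Also in liver, DW6 was highest for Bub1 (0.573) and CAAM5 for Tpx2 (0.786).

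In WAT, DW2 was the highest DW mouse for Bub1 (0.588), Aurka (0.698) and Cdca3 (0.839), and DW6 for Cdc6 (0.687). The lowest were DW6 for Aurkb (0.573), DW7 for Mcm6 (0.664) and, among CAAM mice, CAAM4 for Cdca8 (0.724), while CAAM7 was the highest for Kif23 (0.713). DW2 and CAAM7 are arrays with male tract genes, whose part was not tested.

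In BAT, DW2 was highest for Ccne1 (0.744), DW6 for Cenpe (0.625), and CAAM5 for Ccne2 (0.861) and Ccna2 (0.754). Cenpa was lowest in DW4 (0.59) and in CAAM2 (0.736).

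Between tissues, the CAAM effect differed by a test of the difference itself for 1 probe set of Mcm3, by 3.18 SD in WAT minus liver (limma adjusted p = 0.0327), while the probe set that stands for Mcm3 did not pass. The SE in that test was the same for each member probe set, so this p value does not measure the spread of the Mcm3 probe set between mice.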

How the results depend on the processing

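With a threshold of 0.5 score units, 11 genes were higher in WAT than in liver, 1 was higher and 3 lower in BAT than in liver, and 13 were lower in BAT than in WAT, and with quantile normalization of all 36 arrays 1 was lower in BAT than in WAT. In liver, the number of genes with a higher mean was 10 with quantile normalization, 2 with centring and 6 of 20 with dim probe sets left out, and the median standardised difference was -0.52, -1.24 and -0.16. Rank products then called 1 probe set lower with quantile normalization, 1 with dim ones left out and 0 with ranks of differences divided by the SD. In WAT the median was 0.11 with quantile normalization and 0.19 with centring, and calls of higher probe sets numbered 2 with quantile normalization, 0 with SD-divided ranks 0 without the 4 arrays with male tract genes and 2 without the 3 highest in epididymis markers, where the median was 1.06. In BAT, 42 genes were higher with quantile normalization and with centring and 6 of 16 with dim ones left out. Its median turned to 0.62 and 0.89 with these scalings and was -0.28 with dim ones left out and -0.15 without the 4 arrays of high muscle genes, where 1 was called higher. The cause of these changes was not tested.

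Mouse numbers did not pair the samples, since deviations of same-numbered mice correlated at -0.19 to 0.15. With the number as a replicate block, rank products called 3 higher (Cdk1, Mki67 and Top2a) and 0 lower in liver and 3 higher in WAT, and the medians were 0.28 in liver and -0.16 in BAT. Leaving out each mouse in turn, calls ranged in liver from 0 to 1 higher and 1 to 3 lower, in WAT from 1 to 7 higher and in BAT from 0 to 1 in either direction. The medians ranged from -0.27 to 0.18 in liver, 0.54 to 1.33 in WAT and -0.31 to 0.11 in BAT. They were above 0 in liver without DW3 (0.18), CAAM2 (0.04), CAAM6 (0.05) or CAAM7 (0.07), and in BAT without DW6 (0.09), CAAM2 (0.11) or CAAM4 (0.03). Limma called no member under any of these alternatives.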
